A study of Homo sapiens with 12 samples.

Results

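The 9 genes described here encode enzymes that make, salvage or remove deoxynucleotides, the building blocks of DNA: RRM1, RRM2, RRM2B, TYMS, TK1, DUT, DCK, DTYMK and SAMHD1. They were chosen by name from the authors' differential expression table and joined by gene identifier to the FPKM table, in which fragment numbers are scaled by transcript length and library size. All 9 were among its 19460 genes, and all 9 were among the 15869 tested, those with a mean of at least 0.5 FPKM. They were followed in T-47D, an established luminal breast cancer line that carries the oestrogen receptor, labelled wild type. Cells received DMSO, the solvent control, or 1 µM palbociclib, an inhibitor of the cell cycle kinases CDK4 and CDK6, for 24 h. Poly(A) RNA sequencing and ATAC-seq, which measures open chromatin by transposase insertion, each had 3 replicates per treatment. The sample titles call those of ATAC-seq biological replicates and those of RNA only replicates. All libraries come from 1 cell line, so the spread between them is at most that of cultures.

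Cells raise deoxynucleotide supply when they copy their genome. Ribonucleotide reductase strips the ribose hydroxyl from ribonucleotides, thymidylate synthase makes the thymine nucleotide from its uracil counterpart, and salvage kinases recover nucleosides, while SAMHD1 breaks deoxynucleoside triphosphates down again. Several of these genes are textbook targets of E2F transcription factors, which the retinoblastoma protein holds back until CDK4 and CDK6 phosphorylate it.

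With palbociclib, 8 of the 9 genes were lower, none was higher, and RRM2B was not called (limma, Benjamini-Hochberg adjusted p under 0.05). Over all genes tested, 22.9% were called lower and 20.9% higher. The median change of the 9 genes was -1.55 on the log2(FPKM + 1) scale, against 0.0023 over all genes. Of the 9 genes, 7 fell by at least 1 log2, a fall called in 3.04% of all genes. Groups did not overlap, with palbociclib lower, for 8 of the 9 genes and for 28.2% of all genes.

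**Figure D1:**
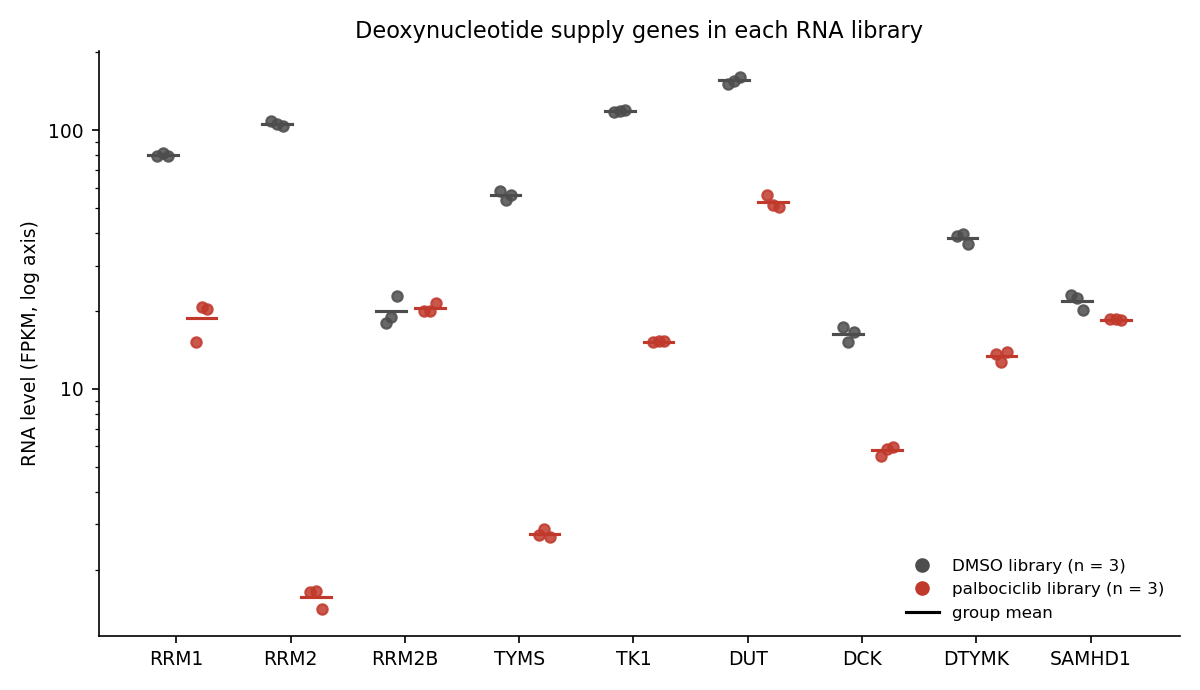
RNA level of the 9 genes in each library, in FPKM on a log axis; points are libraries (3 DMSO, 3 palbociclib) and lines are group means. RRM2 and TYMS drop the furthest, while RRM2B stays between 18.0 and 23.0 FPKM in all 6 libraries.

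The subunits of ribonucleotide reductase parted. RRM2, the small subunit of dividing cells, read 108.6, 105.8 and 103.7 FPKM with DMSO and 1.65, 1.66 and 1.41 FPKM with palbociclib. Every palbociclib library lay far under every DMSO library, and the mean fell to 1.48% of the DMSO mean. The log2 change of -5.38 (SE 0.0511, limma adjusted p = 3.29e-10) was the largest fall among the 15869 genes on the log2(FPKM + 1) scale. Because 1 FPKM is added before the logarithm, this value understates the change of the plain means. The added value shrinks falls of genes at low levels more, so the rank depends on it. The authors' deposited table lists -6.09 for RRM2.

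RefSeq (GRCh38.p14) places RRM2 at chr2:10122568-10211010 on the plus strand, with listed starts at 10122568 and 10122739. Upstream of the second start the letters CCAAT, the box bound by the factor NF-Y, occur 3 times on the gene's strand, and each copy is followed by the same stretch of bases. The 3 copies are shown because they lie inside the RRM2 promoter peak of the ATAC-seq data. Positions count from the start, with -1 the base before it, sequences read 5′ to 3′ on the gene's strand, and capitals mark CCAAT.
RRM2 -129 to -109, chr2:10122610-10122630: gcgcagCCAATgggaagggtc
RRM2 -99 to -79, chr2:10122640-10122660: gcacagCCAATgggaagggcc
RRM2 -72 to -52, chr2:10122667-10122687: ccaaagCCAATgggaagggcc

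RRM1, the large subunit that carries the active site (chr11:4094685-4138932, plus strand), read 79.5, 81.9 and 79.3 FPKM with DMSO and 15.2, 20.7 and 20.5 FPKM with palbociclib. The first palbociclib library was lower than the other 2, and all 3 lay under the DMSO libraries. The log2 change was -2.05 (SE 0.100, limma adjusted p = 1.04e-06). RRM2B, the small subunit that serves resting cells and DNA repair, read 18.0, 18.9 and 23.0 FPKM with DMSO and 20.1, 20.0 and 21.5 FPKM with palbociclib. The groups overlapped. Its log2 change was 0.05 (SE 0.0829, adjusted p = 0.693), with a 95% interval of -0.15 to 0.24.

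Within a library, RRM2 therefore went from above RRM2B to far under it. The ratio of RRM2 to RRM2B was 6.04, 5.59 and 4.52 with DMSO and 0.0820, 0.0828 and 0.0655 with palbociclib. RRM2 over RRM1 was 1.37, 1.29 and 1.31 with DMSO and 0.108, 0.0799 and 0.0689 with palbociclib. In both ratios the groups lay apart. These are ratios of RNA levels per transcript length and not of protein.

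Among the genes of thymine nucleotide supply, TYMS moved most. Thymidylate synthase, its product and the target of fluorouracil, takes its methyl group from a folate cofactor. TYMS read 58.4, 53.9 and 56.3 FPKM with DMSO and 2.73, 2.86 and 2.67 FPKM with palbociclib. The palbociclib mean was 4.90% of the DMSO mean, with groups far apart. The log2 change was -3.93 (SE 0.0479, limma adjusted p = 3.95e-10), the 4th largest fall of all genes tested on the log2(FPKM + 1) scale. TYMS lies at chr18:657653-673578 on the plus strand. Its last 150 bases before the start are shown because they hold an E2F match, the letters TTTCCCGC on the opposite strand, in capitals.
TYMS -150 to -1, chr18:657503-657652: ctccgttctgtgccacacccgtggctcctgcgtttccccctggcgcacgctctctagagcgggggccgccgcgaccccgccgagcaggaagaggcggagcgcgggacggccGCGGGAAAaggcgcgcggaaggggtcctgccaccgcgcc

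TYMS shares its locus with 2 genes on the other strand, and the strand used in counting is not given in the sources used here. The TYMS antisense RNA TYMSOS, which starts 638 bp from the TYMS start, went from 4.48 to 0.416 FPKM on average (log2 change -1.95, limma adjusted p = 2.12e-07). ENOSF1, a metabolic enzyme gene that overlaps TYMS by 10593 bp, went from 22.8 to 16.6 FPKM (log2 change -0.44, adjusted p = 0.0122). Without strand, reads of such pairs cannot be told apart in the overlap.

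TK1, the cytosolic thymidine kinase of S phase, read 117.8, 118.6 and 119.9 FPKM with DMSO and 15.1, 15.3 and 15.3 FPKM with palbociclib. It had the tightest replicates of the 9 genes relative to its level, and the groups were far apart. The log2 change was -2.88 (SE 0.0302, limma adjusted p = 3.90e-10). Its mitochondrial counterpart TK2 fell slightly, from 7.98 to 6.44 FPKM (log2 change -0.27, adjusted p = 0.0146). That call was lost with quantile normalization (-0.19, adjusted p = 0.0609), with median centring (-0.17, 0.0670) and without palbociclib replicate 2 (-0.25, 0.0524). The ratio of TK1 to TK2 was 13.6, 16.2 and 15.1 with DMSO and 2.42, 2.47 and 2.22 with palbociclib.

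TK1 lies at chr17:78174079-78187204 on the minus strand, with listed starts at 78187052 and 78187204. The letters CCAAT occur 2 times on the opposite strand before the first of these starts, as ATTGG in capitals. Both copies lie inside the TK1 promoter peak.
TK1 -85 to -65, chr17:78187117-78187137: gggcgctgATTGGccccatgg
TK1 -54 to -34, chr17:78187086-78187106: ggctcgtgATTGGccagcacg

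DTYMK, thymidylate kinase, converts the monophosphate made by both TYMS and TK1. It read 39.0, 39.9 and 36.5 FPKM with DMSO and 13.7, 12.7 and 13.9 FPKM with palbociclib, with no overlap. The log2 change was -1.45 (SE 0.0508, limma adjusted p = 1.01e-07). CMPK1, the kinase for uracil and cytosine monophosphates, served as its partner in a ratio, which was 1.46, 1.43 and 1.32 with DMSO and 0.534, 0.472 and 0.527 with palbociclib. DTYMK lies at chr2:241675747-241686815 on the minus strand. Its last 150 bases before the start hold the letters TTCGAA, a form of the cell cycle homology region (CHR) read by the DREAM and B-MYB complexes, near a CCAAT box, with another CCAAT closer to the start.
DTYMK -150 to -1, chr2:241686816-241686965: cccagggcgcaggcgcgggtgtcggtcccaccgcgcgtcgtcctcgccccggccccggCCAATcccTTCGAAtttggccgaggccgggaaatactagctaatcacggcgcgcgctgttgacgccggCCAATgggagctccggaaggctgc

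DUT, the dUTPase that removes dUTP and yields the substrate of thymidylate synthase, had the highest level of the 9 genes in both groups. It read 151.7, 155.7 and 160.3 FPKM with DMSO and 56.1, 51.5 and 50.6 FPKM with palbociclib. The groups did not overlap, and the log2 change was -1.55 (SE 0.0438, limma adjusted p = 2.51e-08). RefSeq lists 4 starts for DUT at chr15:48331095-48343373, plus strand. The bases before the last of them, 48332197, hold 2 different E2F matches, GCGGGAAA (TTTCCCGC on the opposite strand) and TTTGGCGC, in capitals.
DUT -46 to -17, chr15:48332151-48332180: gctgGCGGGAAAtttcggtTTTGGCGCgct

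DCK, deoxycytidine kinase, starts the salvage of deoxycytidine and activates drugs such as gemcitabine and cytarabine. It read 17.3, 15.2 and 16.6 FPKM with DMSO and 5.52, 5.85 and 5.99 FPKM with palbociclib. The groups lay apart, with a log2 change of -1.35 (SE 0.0595, limma adjusted p = 4.94e-07). DGUOK, the mitochondrial kinase for purine deoxynucleosides, read 27.8 FPKM on average with DMSO and 29.4 with palbociclib (log2 change 0.08, adjusted p = 0.185). With quantile normalization DGUOK was called higher (0.16, adjusted p = 0.0130), as it was with median centring (0.17, 0.0124). The ratio of DCK to DGUOK was 0.634, 0.564 and 0.568 with DMSO and 0.183, 0.201 and 0.208 with palbociclib. DCK lies at chr4:70993649-71030914 on the plus strand.

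SAMHD1, the triphosphohydrolase that lowers deoxynucleotide pools, changed least among the genes called. It read 23.0, 22.5 and 20.3 FPKM with DMSO and 18.6, 18.6 and 18.4 FPKM with palbociclib. The groups did not overlap, but the gap between the lowest DMSO library and the palbociclib libraries was small. The log2 change was -0.23 (SE 0.0513, limma adjusted p = 0.00718), and the call was lost with quantile normalization (-0.14, adjusted p = 0.0528) and with median centring (-0.13, 0.0578). The authors' deposited table gives -0.24 with an adjusted p of 4.60e-05 and lists the gene as not significant. SAMHD1 lies at chr20:36889773-36951708 on the minus strand. The ratio of RRM2 to SAMHD1 was 4.71, 4.71 and 5.11 with DMSO and 0.0882, 0.0892 and 0.0765 with palbociclib.

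Set side by side per length, the levels changed order. With DMSO the mean FPKM ran from DUT at 155.9 through TK1 at 118.7, RRM2 at 106.0, RRM1 at 80.2, TYMS at 56.2, DTYMK at 38.5, SAMHD1 at 21.9 and RRM2B at 20.0 to DCK at 16.4. Of the neighbours in that order, the libraries of SAMHD1 and RRM2B overlapped and those of the others did not. With palbociclib DUT at 52.7 was followed by RRM2B at 20.5, RRM1 at 18.8, SAMHD1 at 18.5, TK1 at 15.2, DTYMK at 13.4, DCK at 5.79, TYMS at 2.76 and RRM2 at 1.57. There, RRM1 overlapped RRM2B and SAMHD1, and its lowest library lay within the range of TK1. RRM2 thus moved from the third place to the last.

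In all, 8 ratios between genes were formed within libraries, each with the gene of the larger fall as the first of the pair. Their shared direction follows from that order and is no separate result. On the log2 scale the palbociclib mean minus the DMSO mean ran from -1.39 (TYMS over TK1, 0.473 to 0.181) to -6.13 (RRM2 over RRM2B, 5.34 to 0.0763). The other values were -5.84 for RRM2 over SAMHD1, -3.97 for RRM2 over RRM1, -2.65 for TK1 over TK2, -1.58 for DCK over DGUOK, and -1.46 for both TK1 over DCK and DTYMK over CMPK1. In each ratio the groups did not overlap, and the exact permutation test, two-sided, gave p = 0.1, the smallest that 3 against 3 libraries allow (0.1 also after Benjamini-Hochberg adjustment over the 8 ratios).

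**Figure D2:**
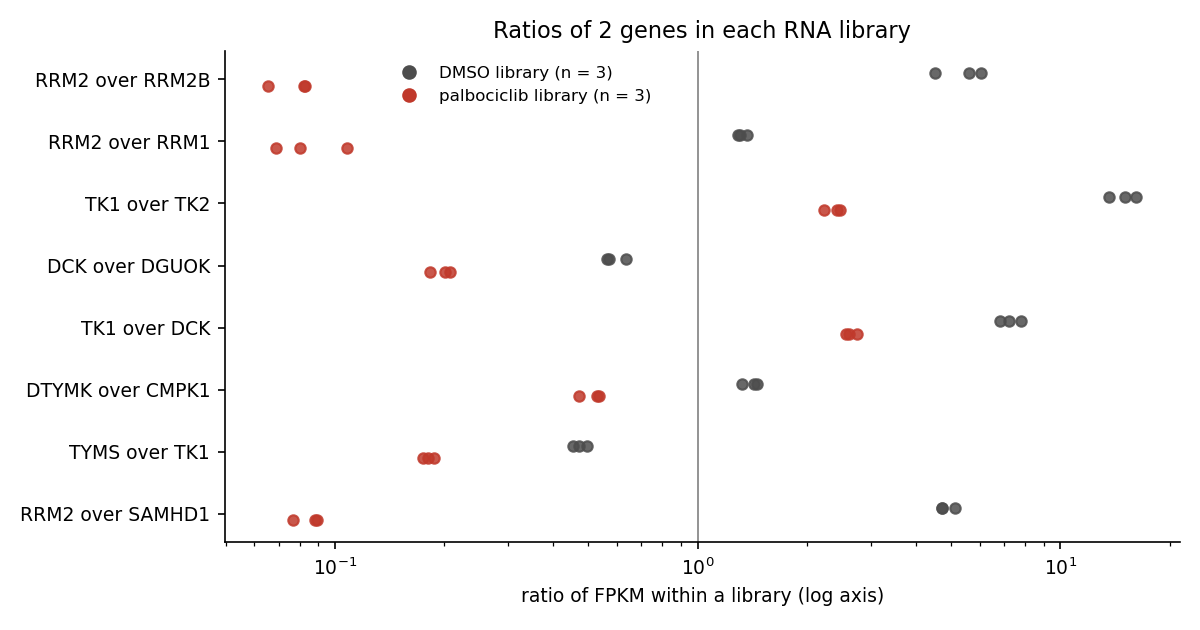
Ratio of the FPKM of 2 genes within each RNA library, on a log axis; points are libraries (3 DMSO, 3 palbociclib) and the vertical line marks equal levels. RRM2 over RRM2B crosses that line, from 4.52 or more with DMSO to 0.0828 or less with palbociclib.

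The wider nucleotide pathway moved less. In 6 lists of 85 genes, 74 were tested, of which 39 were lower, 9 higher and 26 not called, with a median log2 change of -0.15. For this and the list counts that follow, the shares over all genes tested were 22.9% lower and 20.9% higher. Precursor synthesis fell in part. In de novo pyrimidine synthesis 4 of 5 genes were lower and none higher (median -0.43), led by the CTP synthase CTPS1 (-0.79), UMPS, which completes UMP (-0.44), and CAD, which runs the first steps (-0.43). In de novo purine synthesis 8 of 13 were lower and 1 higher (median -0.17). There PRPS2, which makes the activated ribose, fell from 28.7 to 8.83 FPKM (-1.60), GMPS by 0.83 and PAICS by 0.52 on the log2 scale. ATIC, the last enzyme of the route, was higher (0.12, limma adjusted p = 0.0422), a call lost with no filter (adjusted p = 0.0509), with no trend (0.0996) and without DMSO replicate 2 (0.113), DMSO replicate 3 (0.121), palbociclib replicate 1 (0.135) or palbociclib replicate 3 (0.0708).

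The folate list, which feeds thymidylate and purine synthesis, had 8 of 12 tested genes lower and 1 higher (median -0.47). GGH, which trims folate polyglutamates, fell by 1.43 and MTHFD1 by 0.91 on the log2 scale. FPGS, which adds those glutamates, was higher (0.20, adjusted p = 0.0303), though not with no trend (0.0545) or without DMSO replicate 1 (0.0940), DMSO replicate 2 (0.0883), palbociclib replicate 2 (0.0789) or palbociclib replicate 3 (0.0863). Near-identical pseudogene copies are known for some of the 9 genes, and how shared reads were assigned is not given in the sources used here.

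Of 21 salvage enzymes and nucleotide kinases tested, 9 were lower, 4 higher and 8 not called (median -0.08). The shares over all genes were 22.9% lower and 20.9% higher. HPRT1, the purine salvage enzyme, fell by 0.48, and the uridine kinases UCK2 and UCK1 fell by 0.46 and 0.35 on the log2 scale. NME3, a nucleoside diphosphate kinase, was higher (0.45, limma adjusted p = 9.96e-04), as were NME7 (0.27) and the mitochondrial kinase AK3 (0.22). The call of NME7 (adjusted p = 0.0364) was lost with no filter (0.0516), with no trend (0.0613) and without DMSO replicate 1 (0.0931), 2 (0.0928) or 3 (0.0521) or palbociclib replicate 2 (0.0542).

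Among 16 tested genes of breakdown and pool cleaning, 8 were lower and 2 higher (median -0.12). NUDT1, which clears oxidised purine triphosphates, fell from 40.5 to 16.2 FPKM (-1.28). The mitochondrial nucleotidase NT5M fell by 0.82 on the log2 scale at a low level, from 1.34 to 0.331 FPKM. With 0.1 FPKM added in place of 1, the NT5M change was -1.79. TYMP, thymidine phosphorylase, which degrades the substrate of TK1, rose from 1.54 to 3.69 FPKM (0.89, limma adjusted p = 1.54e-05). The adenosine deaminase ADA was higher at a low level (0.27, adjusted p = 0.0492), a call lost with most alternatives, such as without DMSO replicate 1 (0.143) or 2 (0.119) or without palbociclib replicate 1, 2 or 3 (0.0517 or more). DCTD, which deaminates dCMP towards the TYMS substrate, was not called (-0.08, adjusted p = 0.189). Of 7 transport genes, 2 were lower, among them SLC25A36 (-0.22), and 1 was higher, SLC29A3 (0.28). Beside these counts, 22.9% of all genes were lower and 20.9% higher. The SLC25A36 call (adjusted p = 0.0360) was lost with quantile normalization (0.133), with median centring (0.175), with no trend (0.0660) and without DMSO replicate 1, 2 or 3 or palbociclib replicate 1 or 2 (0.0546 to 0.117). That of SLC29A3 (0.0454) was lost with no filter (0.0619) and without DMSO replicate 2 or 3 or palbociclib replicate 1 or 2 (0.114 to 0.139).

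**Figure D3:**
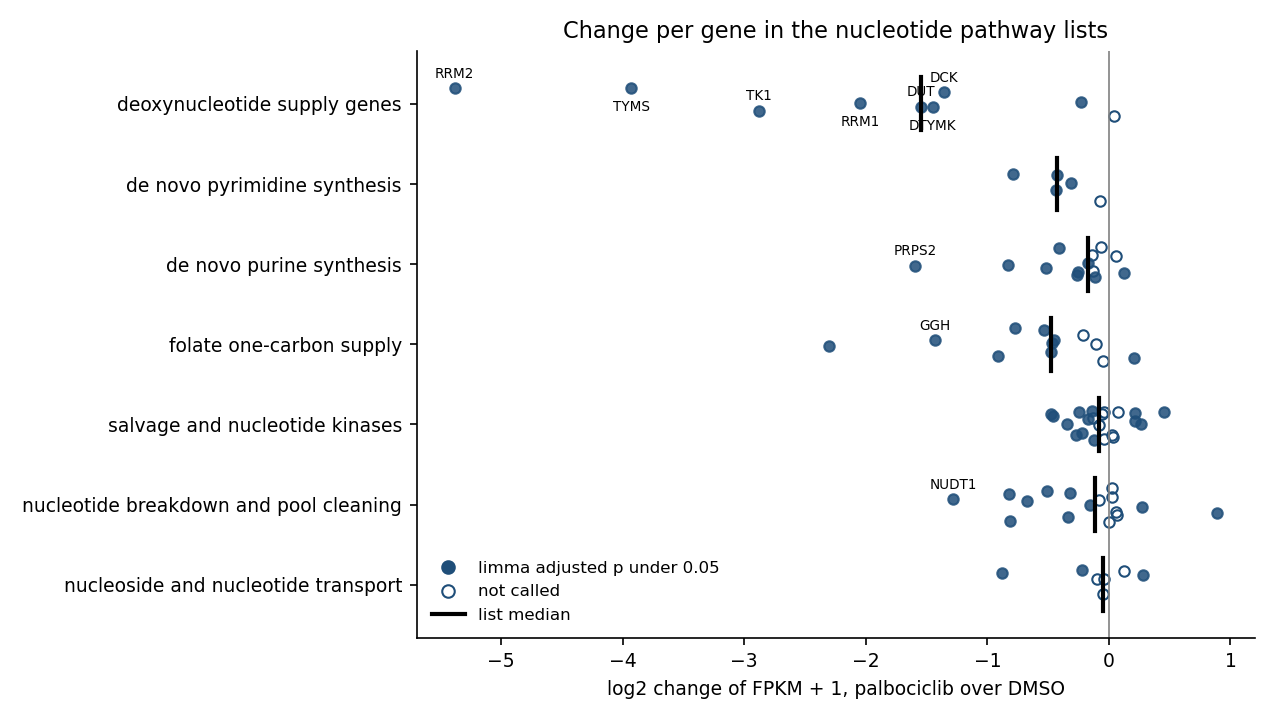
Change per gene on the log2(FPKM + 1) scale, palbociclib over DMSO, for the 9 genes and the 6 pathway lists; filled points passed an adjusted p under 0.05, open points did not, and bars are list medians. The 9 genes have a median of -1.55, the 6 lists medians from -0.47 to -0.05, and PRPS2 lies at -1.60.

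RNAs of proteins known to act on the 9 genes or their products were lower as well: 6 of 6, with a median of -1.43. The share called lower over all genes was 22.9%. CCNA2 (cyclin A, -3.73), CDK1 (-3.43) and CDK2 (-1.31), which phosphorylate SAMHD1 in cycling cells, fell, as did cyclin F (CCNF, -1.55), which directs RRM2 to degradation. FZR1, an activator of the anaphase-promoting complex that targets TK1 and RRM2, changed by -0.25 (adjusted p = 0.0243), a call lost with quantile normalization (0.123), with median centring (0.101) and without DMSO replicate 1 (0.0777), DMSO replicate 2 (0.0838), palbociclib replicate 1 (0.0688) or palbociclib replicate 2 (0.0816).

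As a comparison with another set of S phase genes, all 6 subunits of the MCM replicative helicase were called lower, against 22.9% of all genes tested. Their median was -2.40 (MCM5 -2.63, MCM2 -2.53, MCM4 -2.49). In bulk RNA, fewer cells in S phase and less RNA per cell cannot be told apart. Luminal markers were expressed in every library, which describes the cell type and not the line itself. Their summed level was 5419 to 5939 FPKM with DMSO and 7312 to 8084 FPKM with palbociclib. Of these 8 markers, 7 were called higher, against 20.9% of all genes tested. Their part in the results above was not tested. Markers of basal cells (only TP63 was listed) reached 0.113 FPKM and those of leucocytes (only CD68) 0.173 FPKM. The stromal sum was 23.5 to 26.3 FPKM in all libraries. Nearly all of it was COL1A1, which averaged 23.7 FPKM with DMSO and 25.1 with palbociclib. COL1A2 averaged 0.453 and 0.315 FPKM, and PDGFRB was not listed. The 3 endothelial markers were not among the genes listed.

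For each gene that fell by at least 1 log2, the 3 genes of 13819 with the nearest profile were taken, by Euclidean distance over the 6 libraries of log2(FPKM + 1) minus the DMSO mean. TK1 had the closest neighbours, MELK (distance 0.0558), MAD2L1 and BUB1B, the last 2 being spindle checkpoint genes. RRM2 had no close one: the nearest was FAM111B at 2.21, then MYBL2 and TYMS. TYMS lay nearest to a gene with no symbol in the table used, then the mitotic kinase AURKB and FAM111B. RRM1 was nearest to ARHGAP11B, RDM1 and GAS2L3, DUT to CCNF, CTSV and HAUS8, DCK to ECT2, MIS18A and POLD3, and DTYMK to a gene with no symbol, KIF24 and FIGNL1. The measure follows mainly the size of the change.

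Accessibility was compared at 38121 peaks with 12830062 to 18250496 reads in peaks per library, and 9 peaks lay within 10 kb of the 9 genes. Of these, 4 were lower with palbociclib and none was higher (edgeR quasi-likelihood test, adjusted p under 0.05), where 6.46% of all peaks were called lower. A promoter peak, with an edge within 1 kb of a listed start, was present for RRM1, RRM2 and TK1. Of these 3, 2 were lower, against 11.1% lower and 1.86% higher over the 6411 peaks so placed. In all 3 the palbociclib libraries lay under the DMSO libraries, as in 22.9% of the 6411.

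The RRM2 promoter peak, chr2:10122550-10122878, covers both listed starts and the 3 CCAAT copies printed above. It held 47.8, 43.9 and 44.4 CPM (counts scaled to library size) with DMSO and 17.3, 16.1 and 16.5 with palbociclib. All palbociclib libraries were under 40% of the DMSO mean, with no overlap. The log2 change was -1.44 (SE 0.0835, edgeR adjusted p = 3.84e-22), the 6th largest fall among all 38121 peaks. A further peak 1703 bp before the start, chr2:10120049-10120865, lies in no RefSeq gene and held 70.1, 63.6 and 72.9 against 51.8, 54.7 and 52.4 CPM. It fell less (log2 change -0.38, SE 0.0629, edgeR adjusted p = 1.24e-05).

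TK1 had the strongest peak of the 9. At chr17:78186834-78187675 it held 253, 248 and 253 CPM with DMSO and 220, 224 and 213 with palbociclib. The groups lay apart, yet the log2 change was only -0.20 (SE 0.0428, edgeR adjusted p = 7.95e-04). The peak also covers the start of AFMID, a kynurenine formamidase gene on the other strand whose start is 158 bp away. AFMID RNA was higher with palbociclib, 22.2 against 18.3 FPKM (log2 change 0.27, limma adjusted p = 0.00355). The RNA of TK1 was at 12.8% of the DMSO mean while the shared peak was at 87.2%.

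RRM1 had a promoter peak at chr11:4094231-4095221 with 70.3, 73.9 and 69.3 CPM against 64.2, 67.7 and 59.8. The libraries did not overlap, but the peak was not called (log2 change -0.16, SE 0.0601, edgeR adjusted p = 0.0765). Without palbociclib replicate 2 it was called (-0.20, 0.0407). The other peak called lower, chr20:36886933-36887749, lies past the end of SAMHD1 and inside the neighbouring gene TLDC2. It held 37.2, 35.8 and 39.6 against 30.5, 28.1 and 25.8 CPM (log2 change -0.41, edgeR adjusted p = 1.68e-04). The peaks beside RRM2B, DUT and DTYMK and the peak inside TK1 were not called, with log2 changes from -0.17 to 0.17.

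**Figure D4:**
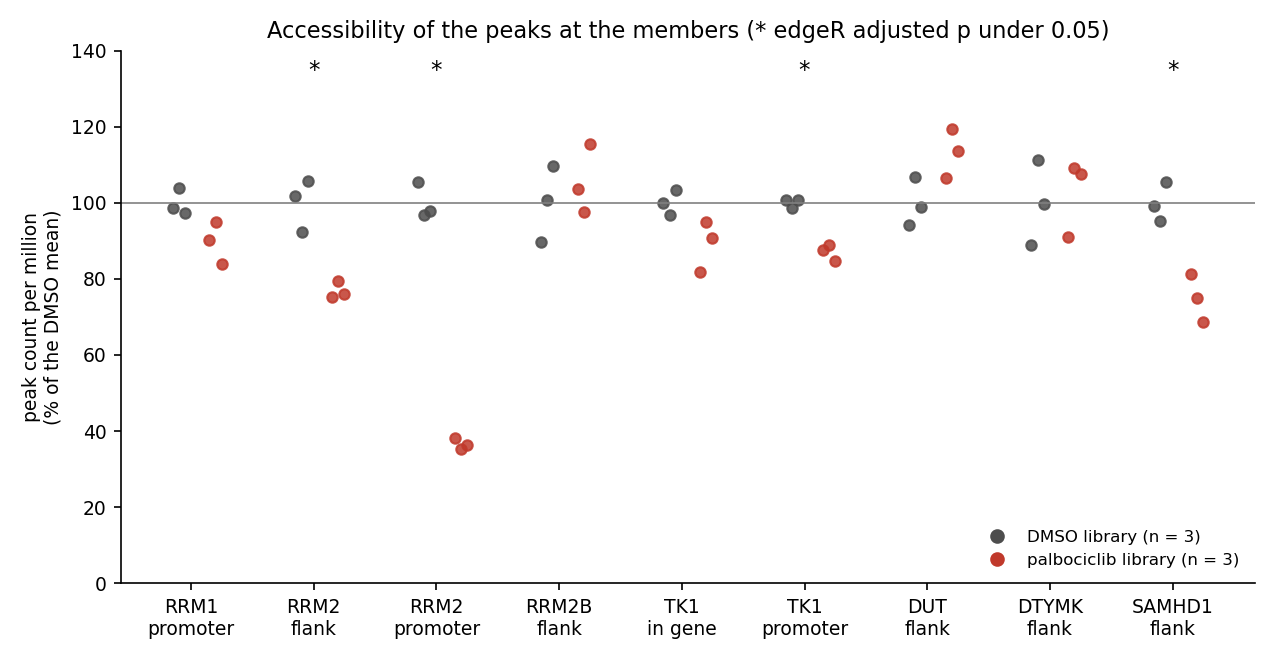
CPM in the 9 peaks within 10 kb of the genes, as a percentage of the DMSO mean; points are libraries (3 DMSO, 3 palbociclib) and asterisks mark an edgeR adjusted p under 0.05. The RRM2 promoter peak averages 36.6% of the DMSO mean, the TK1 promoter peak 87.2%.

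No peak lay within 1 kb of a listed start of RRM2B, TYMS, DUT, DCK, DTYMK or SAMHD1, although all 6 were expressed. The nearest peak to the TYMS start was 33.4 kb away, and that to DCK 304.8 kb. Among tested genes with a listed start, 43.97% had a peak within 1 kb, and 51.09% of the 368 genes that fell by at least 1 log2. A start missing from the peak list says nothing about closed chromatin, so accessibility at these 6 promoters was not measured here.

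Promoter letters were available for 8 of the 9 genes, from 250 bases before to 50 after each listed start, and RRM2B had no entry. The search used, on both strands, E2F (TTTCCCGC, TTTCGCGC, TTTGCCGC or TTTGGCGC), CHR (TTTGAA or TTCGAA) and CCAAT, which do not overlap one another. Matches to E2F were found for TYMS, DUT and DCK (in DCK beginning 22 bases after the start), to CHR for RRM1, DUT and DTYMK, and to CCAAT for RRM1, RRM2, TK1, DTYMK and SAMHD1. Of 34943 windows of 300 bases in the table, 3.30% held E2F, 16.4% CHR and 34.6% CCAAT. These shares are per window, while the matches above are given per gene. RRM2 and TK1 have 2 windows each and DUT has 4, which gives them more places for a match. The shares are therefore no direct measure for the number of genes with a match. A match describes letters and not a bound site, and windows without a match may hold other forms. SAMHD1 has 2 CCAAT copies on the gene's strand and no promoter peak, while the 2 of TK1 are on the opposite strand inside its peak. Whether any match bears on the RNA changes was not tested.

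**Figure D5:**
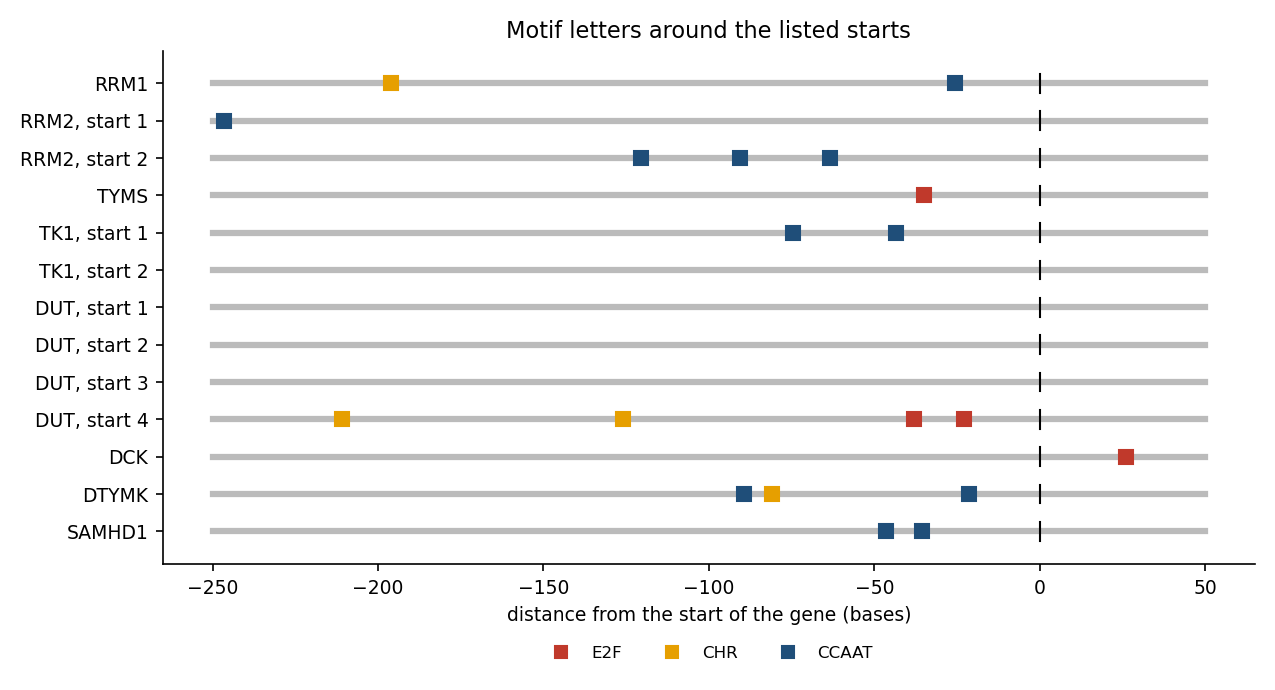
Position of motif matches relative to each listed start of 8 genes, in bases, with the start at 0; grey bars are the windows searched and squares the matches to E2F, CHR and CCAAT. RRM2 has 3 CCAAT matches before its second start, and DUT has 2 E2F matches before its last.

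Alternative splicing was measured from 78 events of the 9 genes in the rMATS tables, which count reads for 2 forms of a transcript. Of these, 17 had at least 20 reads per library on average and a minor form of at least 5%. No event of the 17 was called by edgeR's quasi-likelihood test, and 0 of the 17 had an unadjusted p under 0.05 (0.0814 was the smallest). Over all events 0.35% were called, and 8.53% had an unadjusted p under 0.05. Among the 17, the largest difference in inclusion level was 0.0694, at an exon of DTYMK with 64.3 reads. A further 57 events had a minor form under 5%, of which 54 were at a level of at least 0.95 or at most 0.05 in both groups, and 4 had too few reads. No event of RRM2 or DUT was among the 17. Reads were averaged over all 6 libraries, so RRM2 events met the read limit through DMSO. An RRM2 exon had 849, 1076 and 620 inclusion reads with DMSO and 12, 11 and 14 with palbociclib. Its palbociclib level thus rests on few reads.

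Of the 17 events tested, the 5 with the most reads were pairs of exons listed as mutually exclusive. In TK1 the level of the first form was 0.586 with DMSO and 0.621 with palbociclib in one pair and 0.419 and 0.428 in the other. It was 0.590 and 0.597 in RRM1, and in TYMS 0.543 and 0.515 for one pair and 0.396 and 0.394 for the other. In 4 of these 5 pairs each form had 1 junction with 2091 to 5046 reads over the 6 libraries and 1 with only 1 to 16. A transcript with 1 exon and not its partner needs both junctions, so these levels rest on reads that transcripts holding both exons also give. The authors' deposited table has 1 event of the 9 genes with an FDR under 0.05, an alternative 5′ splice site in RRM1 (FDR 0.0461) with 6.83 reads on average, too few to be tested here.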

How the data were processed

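RNA levels were FPKM as deposited by the authors. The submitters' processing notes name fastp 0.23.2, Salmon 1.10.2, STAR 2.7.10b and DESeq2 1.44.0 with GRCh38, with no stated strand. The median ratio of each library to the geometric mean over genes was 1.00, which makes the median gene the reference for changes, and read depth is not given by FPKM. The authors' deposited DESeq2 table holds a mean normalized count, read as a signal value (1207 to 8050 for the 9 genes), log2 fold changes and their standard errors, a test score and p-values. The deposited rMATS tables hold inclusion and skipping read counts per library, inclusion levels as a fraction, a level difference as a score, p-values and FDR, and 18 of their junction columns were not used. For ATAC-seq, the authors deposited counts from featureCounts 2.0.6 (per the file headers) over 1 set of peaks, with no option to count pairs, so they were taken as reads. The notes also name Bowtie2 2.5.4-6, Picard 3.4.0-0 and MACS3 3.0.3-0 with hg38.

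RNA was compared with limma 3.58.1 (R 4.3.3) on log2(FPKM + 1), letting variance follow level (trend), for genes averaging at least 0.5 FPKM. Peaks were compared with edgeR 4.0.16 (TMM, filterByExpr), and splicing events by edgeR per event type with library effects and the interaction of form and treatment. P-values were Benjamini-Hochberg adjusted over all genes or peaks tested, and for splicing within each event type, with a threshold of 0.05. Each test was tested on simulated data with 200 changed features. Changed genes were drawn from those at higher levels, and changed exons from those with many reads of both forms. Genes at low levels and other types of splicing event were given no change, so recovery there is not known. In the RNA simulation of 15869 genes, 98% of the genes set at -1 log2 were recovered, and in the ATAC simulation of 38121 peaks 54% of those set at -0.5. In the simulation of 13469 skipped exons, the spread between libraries was a set value and was not estimated from these data. With that spread, 56% of the events set at -1 and 52% of those set at 1 log2 were recovered, with 5.56% of calls false. A change of that size in a splicing event could thus be missed.

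All 9 genes are named. List genes named are the 3 largest falls and 3 largest rises called per list, with TK2, DGUOK and DCTD; so are promoter peaks, other peaks if called, and the 5 tested events with the most reads. Of the genes so named, 4 are not reported here, though the list counts include them. The DTYMK exon, the RRM1 splice site and the neighbouring genes were chosen after their values were seen. The genes and lists were chosen with earlier results of these data known. Promoter sequences and positions are from RefSeq, GRCh38.p14. Alternatives were the pseudocount, filters, scaling, the trend, a replicate block, DESeq2 1.42.0 for peaks and leaving out each library.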

Additional observations from a re-analysis of the deposited data

How the results depend on the processing

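All counts of genes and peaks called lower among the 9 genes stayed within 1.5 times under each alternative run. Over all genes, 3628 were lower and 3312 higher; the split was 2856 and 4588 with quantile normalization and 2465 and 5468 with median centring, which moves the median of all genes by 0.10 log2. List genes called higher numbered 9, but 5 with no filter and from 4 (without DMSO replicate 2) to 6 with a library left out, 5 of them without palbociclib replicate 2. With 1 FPKM added, ratios were -5.43 for RRM2 over RRM2B, -3.33 for RRM2 over RRM1, -1.43 for DCK over DGUOK, -1.05 for TYMS over TK1 and -5.15 for RRM2 over SAMHD1, which the added value itself pulls towards 0. Among the results run, directions turned for values that were not called. RRM2B ranged from -0.023 without DMSO replicate 1 to 0.15 without DMSO replicate 3, and DCTD was 0.00092 with quantile normalization and 0.016 with median centring. With a library left out, the log2 odds change ranged from -0.036 to 0.15 for the RRM1 exon pair, and for the TYMS pairs from -0.35 to 0.0097 and from -0.16 to 0.12. No pairing of libraries is stated, and replicate numbers were not used as pairs in the main tests. For deviations from group means, r of same-numbered libraries was 0.106, -0.005 and 0.088 for RNA and 0.005, 0.040 and -0.026 for ATAC. Libraries with unlike numbers gave -0.139 to 0.051 for RNA and -0.068 to 0.059 for ATAC. These low values do not settle whether the numbers mark pairs. With a replicate block 3633 genes were lower and 3330 higher, and ADA lost its call (0.27, 0.0514). Events called over all genes numbered 131, 251 with the replicate block and 63 with no filter on the minor form. With a library left out they ranged from 66 (without DMSO replicate 3) to 131, with 75 without DMSO replicate 2 and 69 without palbociclib replicate 2. Over all peaks, 2464 were lower and 2061 higher, 2030 and 2573 with library totals in place of TMM, and 1533 and 981 with DESeq2. Without ATAC DMSO replicate 3 they were 1557 and 1103, and the higher peaks numbered 1280 without ATAC DMSO replicate 1 and 1236 without ATAC palbociclib replicate 1.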

Other observations

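The peak nearest to the SAMHD1 start, 56.1 kb away at chr20:37007845-37008404 and so outside the 10 kb taken here, was higher with palbociclib (log2 change 1.02, edgeR adjusted p = 6.02e-06). It was chosen after its value was seen, and the peak past the end of SAMHD1 was lower. Near the DTYMK start, ING5, a gene on the other strand that begins 205 bp away, read 9.50 FPKM with DMSO and 8.03 with palbociclib (log2 change -0.22, limma adjusted p = 0.0344), while DTYMK itself was at 34.9% of the DMSO mean. DUT-AS1, which starts 341 bp from a DUT start, read 0.594 and 0.213 FPKM, too low on average to be tested.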
